A study of Mus musculus with 20 samples.

Results

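The 9 genes described here are H2-K1, H2-D1, B2m, H2-Q2, H2-Q7, H2-T22, H2-T23, Tap1 and Nlrc5, members of the MHC class I pathway, and they are 9 of the 13798 genes in the expression matrix. They were chosen by name, with earlier results of these data known. Their rows were read in every follicular T cell and averaged per mouse within each cluster. All 9 were present and all 9 passed the filter on low values in each comparison. The data came from 28192 splenic cells of 10 bone marrow chimeras, sorted as CD3+ and CD4+ cells (CD45.2+, CD45.1-) with both CXCR5 and PD-1 on their surface, and captured with 10x 5′ gene expression and V(D)J libraries, with 1 library of each kind per mouse. All recipients were irradiated, all mice were of the C57BL/6 strain by their labels, and all were sacrificed 10 weeks after irradiation. The WT chimeras (n = 5, labelled 2 female and 3 male) received congenic marrow and were immunized with NP-OVA, a hapten coupled to ovalbumin, in alum at 6 weeks. The study's methods also name a later booster of NP-OVA for non-autoimmune chimeras, which the labels do not give. The 564Igi chimeras (n = 5, labelled 3 female and 2 male) received the same kind of marrow mixed with marrow of 564Igi mice, whose B cells carry the knocked-in heavy and light chains of a receptor that binds the body's own ribonuclear complexes, and their labels name no immunization. Immunization and condition therefore cannot be told apart. From which of the mixed marrows the sorted T cells came is not given in the sources used here.

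MHC class I molecules display short peptides on the surface of nearly every nucleated cell, where CD8 T cells and natural killer cells read them. A heavy chain pairs with the light chain β2-microglobulin and is loaded in the endoplasmic reticulum with peptides that the proteasome has cut and the TAP transporter has carried in. Interferons raise the transcription of many genes of the pathway, and NLRC5 acts as a transactivator at class I promoters.

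H2-K1 and H2-D1 encode the classical heavy chains, and they lie on chromosome 17 of GRCm38 at chr17:33996017-34000347 and chr17:35262730-35267499. B2m, the light chain gene, is on chromosome 2 at chr2:122147686-122153083. The other heavy chain genes belong to class Ib: H2-Q2 at chr17:35342242-35346762, H2-Q7, which encodes Qa-2, at chr17:35439155-35443773, H2-T23, which encodes Qa-1, the ligand of the CD94 and NKG2A receptor, at chr17:36029773-36032855, and H2-T22, a ligand of some γδ T cell receptors, at chr17:36037128-36042747. Tap1, a subunit of the peptide transporter, is at chr17:34187553-34197225, and Nlrc5 is at chr8:94434356-94527272. All 9 are annotated as protein coding in GENCODE vM21.

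Class I heavy chain genes are near copies of each other, so the share of each transcript that a read could not tell from another gene was computed. Of all stretches of 98 bases, the length of the read, in the transcript of H2-Q7, 16.6% also occurred in transcripts of other genes, led by H2-Q6, and 13.8% of the first 500 did. The same share was 15.0% for H2-T22, led by H2-T10, and 7.4% over its first 500 stretches. It was 7.64% for H2-T23 and 4.74% for H2-D1, and 0% over the first 500 in both. No such stretch was found for H2-K1, B2m, H2-Q2, Tap1 or Nlrc5. Values of H2-Q7 and H2-T22 are uncertain to that extent.

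The promoters of 5 members are shown because their levels moved differently across the clusters described next, from H2-T22, highest in the interferon stimulated cluster, to H2-Q2, which was not. Sequences are from RefSeq (GRCm38.p6), from up to 250 bases before the start to the last base before an annotated exon, and 8 of the 9 members had an entry. Capitals mark matches, on either strand, to 4 short motifs picked after the promoters had been looked at: GGATTCC (the core of an NF-κB site of class I genes), TTTCACT (part of their interferon stimulated response element), TGACGC (part of a CRE-like box) and CCAAT (read as ATTGG on the other strand). No 2 of these overlapped in a member.
H2-K1, chr17:34000348-34000597, minus strand: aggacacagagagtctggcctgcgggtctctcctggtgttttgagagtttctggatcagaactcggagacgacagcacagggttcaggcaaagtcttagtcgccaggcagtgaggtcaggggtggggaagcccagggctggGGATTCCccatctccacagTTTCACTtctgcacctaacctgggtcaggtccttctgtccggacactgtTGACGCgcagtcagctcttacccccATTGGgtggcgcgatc
H2-Q7, chr17:35438905-35439154, plus strand: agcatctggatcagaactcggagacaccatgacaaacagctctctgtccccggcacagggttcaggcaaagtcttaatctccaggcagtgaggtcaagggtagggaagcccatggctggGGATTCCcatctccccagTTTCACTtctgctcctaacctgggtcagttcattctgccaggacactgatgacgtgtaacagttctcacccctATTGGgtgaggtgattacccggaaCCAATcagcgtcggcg
H2-T22, chr17:36042748-36042960, minus strand: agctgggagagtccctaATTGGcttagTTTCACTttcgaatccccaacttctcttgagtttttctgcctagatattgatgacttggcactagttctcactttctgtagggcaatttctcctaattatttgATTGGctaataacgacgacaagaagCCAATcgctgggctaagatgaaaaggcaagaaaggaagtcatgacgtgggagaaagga
B2m, chr2:122147437-122147685, plus strand: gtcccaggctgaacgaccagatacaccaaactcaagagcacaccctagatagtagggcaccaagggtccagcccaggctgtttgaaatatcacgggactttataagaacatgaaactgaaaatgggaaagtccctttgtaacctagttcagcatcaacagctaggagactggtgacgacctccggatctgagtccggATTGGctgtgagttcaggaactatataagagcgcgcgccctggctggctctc
H2-Q2, chr17:35342057-35342241, plus strand: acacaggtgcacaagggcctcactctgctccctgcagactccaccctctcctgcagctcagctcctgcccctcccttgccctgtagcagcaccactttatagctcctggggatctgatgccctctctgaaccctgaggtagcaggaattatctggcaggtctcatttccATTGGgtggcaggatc

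Of 32851 RefSeq promoters, read over the 250 bases before the start, 3.7% held TTTCACT, and so did 4 of the 8 members with an entry, namely H2-K1, H2-D1, H2-Q7 and H2-T22. GGATTCC was in 3.17% of all promoters and in H2-K1, H2-D1 and H2-Q7. TGACGC was in 6.12% and in H2-K1 and H2-D1, and CCAAT was in 33.8% and in 8 of 8 members. In the windows of B2m, H2-Q2, H2-T23 and Tap1, among these letters, the CCAAT box alone was found. Because the motifs were picked after these promoters had been looked at, the shares are no test of an excess in the members. The heavy chain genes are near copies of each other, so their matches are not independent. Other spellings of such sites were not searched. B2m, H2-T23 and Tap1 were higher in the interferon stimulated than in the activated cluster in 8 of 8 mice. So were the 4 members with TTTCACT, and H2-Q2 was not. Whether the motifs bear on the levels was not tested. These are matches of letters in a window and not sites shown to be bound. The windows of H2-D1 and Tap1 lie within annotated exons and are not printed.

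Levels are given as the mean over a mouse's cells of log2(corrected count + 1), where the corrected count is the UMI count after the authors' sctransform normalization, and a mouse entered a cluster with at least 20 cells. The authors' clusters held 11953 activated TFH, 11650 TFR, 2803 Sostdc1+ TFH, 725 central memory TFH, 682 effector TFH and 379 interferon stimulated (ISG) TFH cells. The sorted T cells carried Cd3e transcripts in 99.4% (WT) and 99.5% (564Igi) of cells, Cd4 in 66.6% and 68.0%, and Cxcr5 in 41.1% and 40.4%. Foxp3, the defining transcription factor of TFR cells, was found in 56.0% ± 3.98 (SD, n = 10) of cells of the TFR cluster, 7.20% ± 2.93 of activated TFH and 26.3% ± 5.41 (n = 8) of ISG TFH cells. Mice held 1121 to 4030 cells with medians of 2728 to 4375.5 raw UMIs per cell, and 988 of the 28192 cells shared their barcode sequence with a cell of another library. The authors normalized WT and 564Igi cells in separate runs, so that condition and normalization run cannot be told apart. Together the 9 members made up 0.919% to 1.15% of a mouse's corrected counts.

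Every follicular T cell cluster carried class I transcripts, and for 8 of the 9 genes the ISG cluster had the highest mean. H2-K1 was found in 99.7% of cells, H2-D1 in 99.7% and B2m in 99.3%, each as the mean over 10 mice. H2-Q7 was found in 74.7%, H2-T22 in 65.9%, Tap1 in 46.0% and H2-T23 in 42.2%. Nlrc5 was found in 14.7% and H2-Q2 in 11.8% of cells. The clusters had been made by the authors from these same values, so levels by cluster are a description with no test.

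**Figure D1:**
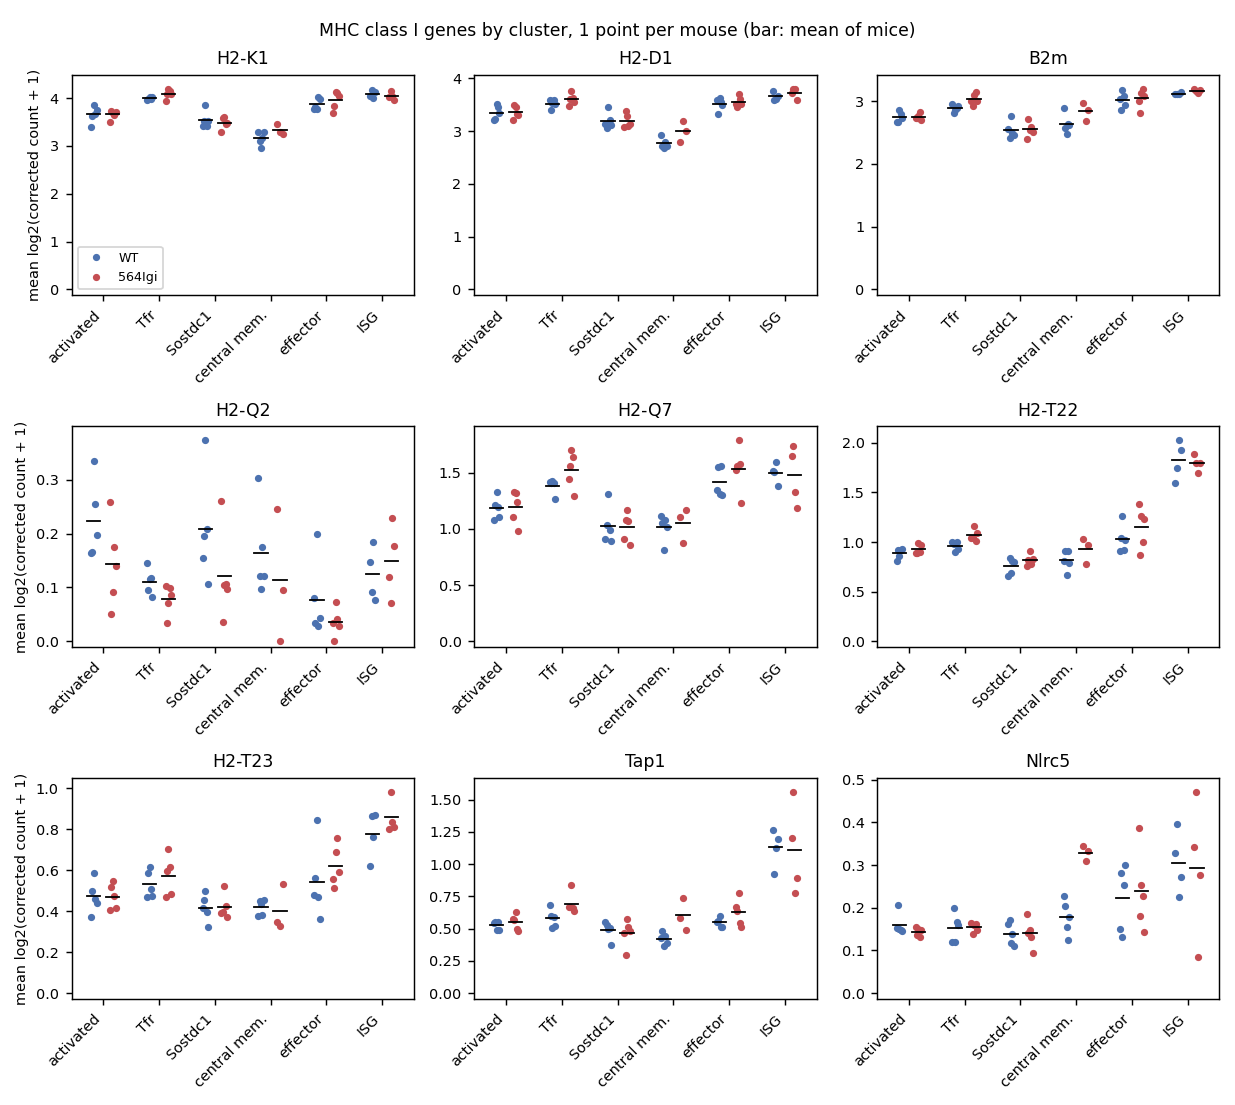
Mean log2(corrected count + 1) of each MHC class I gene (vertical axis) in the 6 clusters (horizontal axis), with 1 point per mouse, WT in blue and 564Igi in red, and bars at the mean of the mice. H2-T22 and Tap1 stand highest in ISG TFH cells, where H2-T22 ranged from 1.60 to 2.02 against 0.81 to 0.99 in activated TFH cells, while H2-Q2 was lowest in effector TFH and TFR cells.

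The classical heavy chains were highest in ISG and TFR cells and lowest in central memory cells. H2-K1 averaged 4.07 ± 0.07 (SD, n = 8) in ISG TFH, 4.04 ± 0.09 (n = 10) in TFR, 3.91 ± 0.16 in effector TFH, 3.66 ± 0.13 in activated TFH, 3.51 ± 0.15 in Sostdc1+ TFH and 3.22 ± 0.15 (n = 8) in central memory TFH cells. ISG and TFR cells did not differ in H2-K1 beyond the spread between mice (0.03 ± 0.11, SD of the paired differences), whereas each later step in the order exceeded it. TFR exceeded effector cells by 0.13 ± 0.11, effector exceeded activated cells by 0.26 ± 0.17 and activated exceeded Sostdc1+ cells by 0.14 ± 0.10. The last step, from Sostdc1+ to central memory cells, was 0.30 ± 0.30 and sits at the edge of the spread.

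H2-D1 followed a like order, from 3.70 ± 0.09 in ISG TFH cells through 3.56 ± 0.10 in TFR, 3.54 ± 0.10 in effector, 3.36 ± 0.12 in activated and 3.20 ± 0.13 in Sostdc1+ to 2.86 ± 0.18 in central memory cells. Here TFR and effector cells were the neighbours that did not differ beyond the spread (0.02 ± 0.07). On the scale of mean corrected counts, central memory cells held 0.682 ± 0.082 times the H2-D1 and 0.726 ± 0.124 times the H2-K1 of the activated cells of the same mouse, with both genes lower in 8 of 8 mice. Of all genes, 8.93% were lower in every mouse in that contrast.

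B2m, whose product every heavy chain needs to reach the cell surface, averaged 3.14 ± 0.03 in ISG, 3.03 ± 0.13 in effector, 2.96 ± 0.11 in TFR, 2.75 ± 0.06 in activated, 2.71 ± 0.17 in central memory and 2.54 ± 0.12 in Sostdc1+ cells. The one step beyond the spread lay between TFR and activated cells (0.22 ± 0.11, higher in 10 of 10 mice). Unlike both classical heavy chains, B2m did not have its lowest mean in central memory cells, where it held 0.987 ± 0.144 times the count of activated cells.

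Among the class Ib heavy chains, H2-T22 and H2-T23 stood apart in ISG cells, and H2-Q7 did not. H2-T22 averaged 1.81 ± 0.13 in ISG cells and 1.09 ± 0.18 in effector cells, the next in order, a step of 0.71 ± 0.20 seen in 8 of 8 mice. In the ISG cells of the 8 mice it ranged from 1.60 to 2.02 with a median of 1.80, and in activated cells from 0.81 to 0.99, so that the clusters did not overlap. The corrected count of H2-T22 in ISG cells was 2.68 ± 0.30 times that in activated cells, and the share of cells with the gene was 90.7% ± 2.58 against 64.0% ± 3.24.

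H2-T23 averaged 0.82 ± 0.10 in ISG cells, 0.58 ± 0.14 in effector and 0.55 ± 0.08 in TFR cells, and 0.47 ± 0.07, 0.42 ± 0.06 and 0.41 ± 0.07 in activated, Sostdc1+ and central memory cells. Its count in ISG cells was 1.97 ± 0.18 times that in activated cells. H2-Q7 averaged 1.49 ± 0.18 in ISG, 1.47 ± 0.17 in effector and 1.45 ± 0.14 in TFR cells, which did not differ beyond the spread, and 1.19 ± 0.12 in activated, 1.03 ± 0.12 in central memory and 1.02 ± 0.14 in Sostdc1+ cells.

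H2-Q2 ran the other way. It averaged 0.18 ± 0.08 in activated, 0.16 ± 0.10 in Sostdc1+, 0.14 ± 0.09 in central memory, 0.14 ± 0.06 in ISG, 0.09 ± 0.03 in TFR and 0.06 ± 0.06 in effector cells. No single step in this order exceeded the spread between mice, but the ends did: effector cells held 0.276 ± 0.236 and TFR cells 0.513 ± 0.159 times the count of activated cells, both lower in 10 of 10 mice. In the same contrasts, 4.83% of all genes were lower in every mouse in effector cells and 7.45% in TFR cells. H2-Q2 was at 0 in the central memory cells of 1 mouse and in the effector cells of 1 mouse, and the lowest 564Igi mouse had it in 3.75% of all cells while the highest mouse, a WT mouse, had it in 17.8%.

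Tap1 averaged 1.12 ± 0.25 in ISG cells and 0.64 ± 0.09 in TFR cells, a step of 0.47 ± 0.21 seen in 8 of 8 mice, and its remaining levels, from 0.59 ± 0.08 in effector to 0.48 ± 0.08 in Sostdc1+ cells, did not differ between neighbours beyond the spread. Its ISG level varied most between mice of all members, from 0.78 to 1.56. Nlrc5 averaged 0.30 ± 0.12 in ISG, 0.23 ± 0.08 in central memory and 0.23 ± 0.08 in effector cells, and 0.15 ± 0.02, 0.15 ± 0.02 and 0.14 ± 0.03 in TFR, activated and Sostdc1+ cells. The difference between central memory and activated cells, 0.079 ± 0.090 and higher in 6 of 8 mice, was within the spread.

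Set against the activated cells of the same mouse, 7 members were higher in TFR cells in 10 of 10 mice and 7 were higher in ISG cells in 8 of 8 mice. Over all genes, 13.2% were higher in every mouse in TFR cells and 3.36% in ISG cells. The 7 were the same genes in both clusters, all but H2-Q2 and Nlrc5. In Sostdc1+ cells, H2-D1, B2m, H2-Q7 and H2-T22 were lower in 10 of 10 mice, as were 2.76% of all genes. The median difference of the 9 members from activated cells was 0.38 in ISG cells and 0.11 in TFR cells, beside -0.0043 and 0.0019 over all genes.

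**Figure D2:**
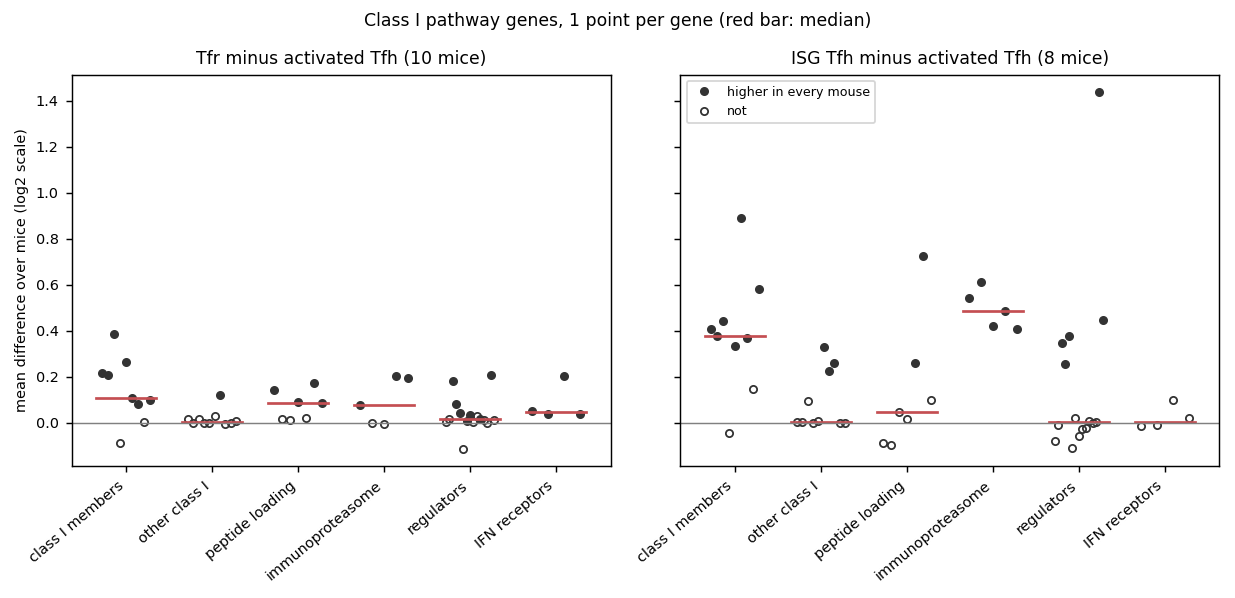
Mean difference over mice from activated TFH cells on the log2 scale (vertical axis) for genes of the class I pathway (horizontal axis, by list), in TFR cells on the left and ISG TFH cells on the right, with 1 point per gene, filled where the gene was higher in every mouse, and a red bar at each list's median. All 5 immunoproteasome genes were higher in every mouse in ISG cells, with a median of 0.49.

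The other genes of the pathway were set against activated cells in the same way. In ISG cells all 5 genes listed for the immunoproteasome, which cuts peptides for class I, were higher in 8 of 8 mice. Their median difference was 0.49, and among them were the catalytic subunits Psmb8 (0.61) and Psmb10 (0.54). Of 7 peptide loading genes, 2 were higher in every mouse, Tapbp, which encodes tapasin, by 0.73 and Tap2, the partner subunit of Tap1, by 0.26. Of 15 regulators, 5 were higher in every mouse, among them Irf9 (0.38), Irf1 (0.35) and Irf2 (0.26). Of 4 interferon receptor genes none was.

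In TFR cells 4 of 7 genes of the peptide loading list were higher in 10 of 10 mice, namely Tapbp (0.17), Calr (0.14), Pdia3 (0.09) and Tapbpl (0.08). All 4 interferon receptor genes were, led by Ifngr1 (0.20), and so were 3 of 5 immunoproteasome genes and 7 of 15 regulators, with Irf1 at 0.18. Nfkb1 was lower in every mouse, by -0.11. Of 10 other class I genes found in the matrix, H2-Q6 alone was higher in every mouse in TFR cells (0.12), and H2-Q4 (0.33), H2-T24 (0.26) and H2-Q6 (0.23) were in ISG cells. Of 4 receptor genes whose products bind class I, Cd8b1 alone was higher in every mouse in TFR cells (0.02) and none was in ISG cells. Beside these lists, 13.2% of all genes were higher in every mouse in TFR cells and 3.36% in ISG cells. So were 4 of 7 B cell markers in TFR cells and 1 in ISG cells.

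The genes most like each of 3 members were taken by Pearson's r of their levels over 56 mouse by cluster values, among 9959 genes, as a description, since values of a mouse share a library. H2-K1 was most like H2-D1 (r = 0.919), AW112010 (0.836), Gimap4 (0.827), H2-Q7 (0.819) and Tigit (0.787), an inhibitory receptor gene. These values moved little without the ISG cluster, to 0.909, 0.818, 0.835, 0.817 and 0.845 over 48 values. Tap1 was most like Gbp10 (0.916), Eif2ak2 (0.912), Irgm2 (0.898), Helz2 (0.895) and Naa20 (0.887), the first 4 of them known as interferon induced. Without the ISG cluster these were 0.477, 0.665, 0.388, 0.248 and 0.311. Nlrc5 was most like Ms4a6b (0.704), Prkacb (0.665), Ifit1bl1 (0.661), Calhm6 (0.649) and Msh3 (0.649), and its r with H2-K1 was 0.18. Without the ISG cluster these were 0.578, 0.700, 0.516, 0.521 and 0.473, and the r with H2-K1 was -0.074.

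To ask how the members differed between autoimmune and immunized chimeras, 564Igi mice were compared with WT mice by limma over all follicular T cells and within each cluster, at an adjusted p below 0.01 and a log2 difference above 0.2. None of the 9 members was called in any of these comparisons, and few genes were. Over all cells 0 of 9 members passed, against 0.01% of all genes tested, and the same count of 0 held in activated TFH (0.0101% of genes), TFR (0.02%), Sostdc1+ TFH (0.0202%), central memory TFH (0%), effector TFH (0.0104%) and ISG TFH cells (0.0106%). By limma without its trend option, 0 genes were called in each of these 7 comparisons. At an unadjusted p below 0.05, 1 member passed over all cells, 1 in activated, 5 in TFR, 1 in Sostdc1+, 2 in central memory, 0 in effector and 0 in ISG cells, against 3.19%, 3.99%, 3.5%, 4.6%, 7.57%, 5.22% and 4.2% of genes. Over all cells, H2-Q2 and Nlrc5, whose WT means were 0.16 and 0.16 on this scale, could not have passed the limit of 0.2 downward. H2-Q2 stood higher than this in activated and Sostdc1+ TFH cells of WT mice, where a call downward was possible. In the other clusters its WT mean was below 0.2. So was the WT mean of Nlrc5 in activated, TFR, Sostdc1+ and central memory cells. A call downward was not possible in these cases either. Without the limit, at an adjusted p below 0.05, 0 members passed as well. With counts summed per 10000, the difference of H2-Q2 was as low as -0.60 over all cells and -0.46 in TFR cells. It was as low as -0.73 in activated, -0.77 in Sostdc1+ and -0.69 in effector cells. Over the settings it lay between -0.86 and 0.12 in central memory and between -0.00091 and 0.20 in ISG cells. The size at this low level depends on the pseudocount, and H2-Q2 was not called. For genes found in part of the cells, a per-mouse mean by itself does not tell fewer cells with a transcript from less RNA per cell.

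**Figure D3:**
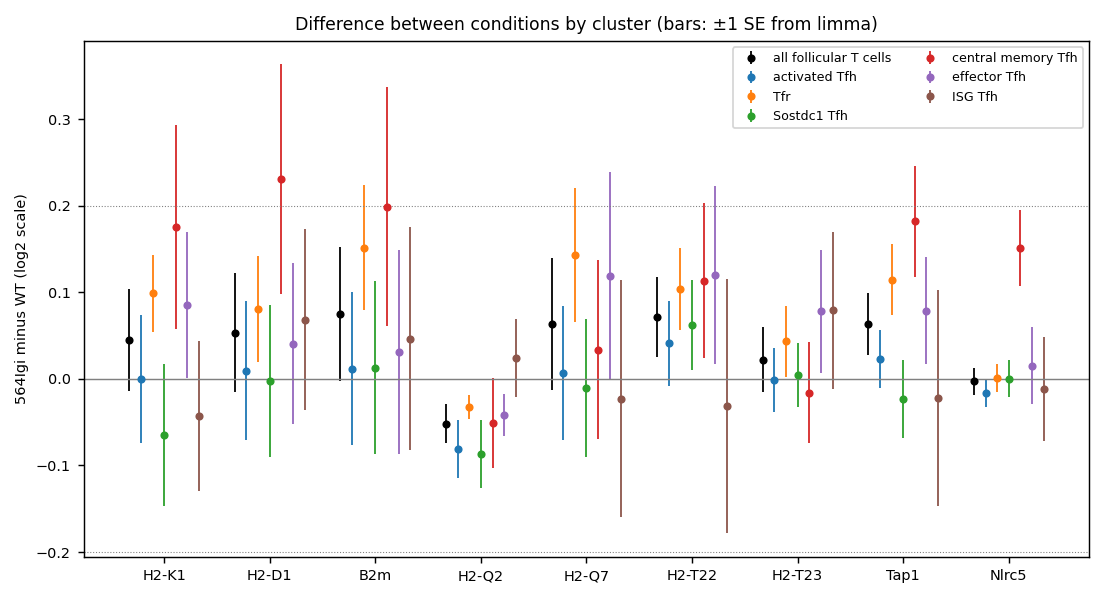
Difference between 564Igi and WT mice on the log2 scale (vertical axis) for each MHC class I gene (horizontal axis), over all follicular T cells and in each cluster by colour, with bars of 1 SE from limma and dotted lines at the limit of 0.2 used for a call. TFR cells (orange) lie above 0 for 8 of 9 genes, H2-Q2 lies below 0 in every cluster but ISG TFH, and only H2-D1 in central memory cells exceeds 0.2.

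Over all cells the mean was higher in 564Igi mice for 7 of 9 members, beside 38.4% of all genes, with a median difference of 0.05 beside -0.0018 over all genes. B2m averaged 2.79 ± 0.05 in WT and 2.86 ± 0.06 in 564Igi mice (exact permutation p = 0.0635, two-sided) and H2-T22 0.92 ± 0.04 and 0.99 ± 0.06 (exact p = 0.0556). H2-Q2 was 0.131, 0.206, 0.156, 0.190 and 0.134 in WT mice 11, 12, 14, 23 and 36 and 0.082, 0.193, 0.130, 0.039 and 0.114 in 564Igi mice 13, 17, 21, 24 and 34. The groups overlapped, with mouse 17 among the WT values, and the difference was not detectable by the exact test (exact p = 0.111, where the smallest p that 5 against 5 mice allows is 0.00794). H2-Q2 was the 1 member that passed an unadjusted limma p below 0.05 over all cells, with a limma adjusted p of 0.9997. It passed unadjusted in TFR cells too, as the only lower member. In activated and in Sostdc1+ TFH cells, the 1 member that passed was a lower one. The largest fall of a member there was that of H2-Q2, -0.08 and -0.09.

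In TFR cells, 8 of 9 members had a higher mean in 564Igi mice, beside 41.9% of all genes, and the median difference was 0.10 beside -0.0016. The lowest limma adjusted p, that of Tap1, was 0.970. H2-T22 was 0.985, 0.896, 0.998, 1.003 and 0.935 in WT mice 11, 12, 14, 23 and 36, and 1.160, 1.039, 1.011, 1.038 and 1.090 in 564Igi mice 13, 17, 21, 24 and 34. The groups did not overlap, which held for 0.71% of all genes, although the highest WT and the lowest 564Igi mouse were close. The difference was 0.10 (SE 0.05), with an exact permutation p of 0.00794, the smallest this design can give, and a limma adjusted p of 0.9998.

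B2m in TFR cells was 2.81, 2.86, 2.96, 2.89 and 2.92 in the same WT mice and 3.103, 3.01, 3.15, 2.93 and 2.99 in the same 564Igi mice. Only mouse 24 of the 564Igi group fell within the WT range, and the difference of 0.15 (SE 0.07) had an exact p of 0.0159. Tap1 averaged 0.58 ± 0.07 in WT and 0.69 ± 0.08 in 564Igi mice (exact p = 0.0397), with mouse 13 at 0.84 above the 4 other 564Igi mice, which lay between 0.64 and 0.67, and WT mouse 14 at 0.69 above those 4. These exact p-values are unadjusted, each 1 of 9 in this cluster.

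The other members in TFR cells overlapped more. H2-K1 averaged 3.99 ± 0.04 in WT and 4.09 ± 0.10 in 564Igi mice, of which 4 lay above every WT mouse and mouse 17, at 3.93, below every one (exact p = 0.0635). H2-Q7 averaged 1.38 ± 0.07 and 1.53 ± 0.16 (exact p = 0.0873), with mice 34 and 36, whose library numbers stand apart from the rest, lowest in their groups at 1.29 and 1.26. H2-Q2 was lower in 564Igi mice, 0.08 ± 0.03 against 0.11 ± 0.02 (exact p = 0.0873). H2-D1 differed by 0.08, H2-T23 by 0.04 and Nlrc5 by 0.00.

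The summed B cell markers stood higher in 564Igi mice in TFR cells. The summed level of 7 B cell markers was 4.78 to 6.09 counts per 10000 in WT and 7.33 to 10.1 in 564Igi mice, without overlap. Cd74 was found in a median of 52.1% and 61.1% of cells, and H2-Aa and H2-Ab1, which encode MHC class II chains, in 0.857% and 3.77% and in 0.980% and 3.39%, whereas the defining B cell gene Ms4a1 had a median of 0% in both groups and Cd79a 0.303% and 0.347%. Cd79b lay the other way, at 4.29% to 8.12% of cells in WT and 4.08% to 5.77% in 564Igi mice, and Cd22 had medians of 5.22% and 5.61%. Their part in the differences of the class I genes was not tested. Of 5 myeloid markers the summed level was 1.93 to 3.81 in WT and 1.68 to 3.06 in 564Igi mice, and of 2 erythroid markers at most 0.064. Over all follicular T cells, the myeloid marker Cst3 was found in a mean of 45.3% (WT) and 45.4% (564Igi) of cells. Lyz2, Fcer1g, Tyrobp and Csf1r each had group means of at most 0.303%.

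**Figure D4:**
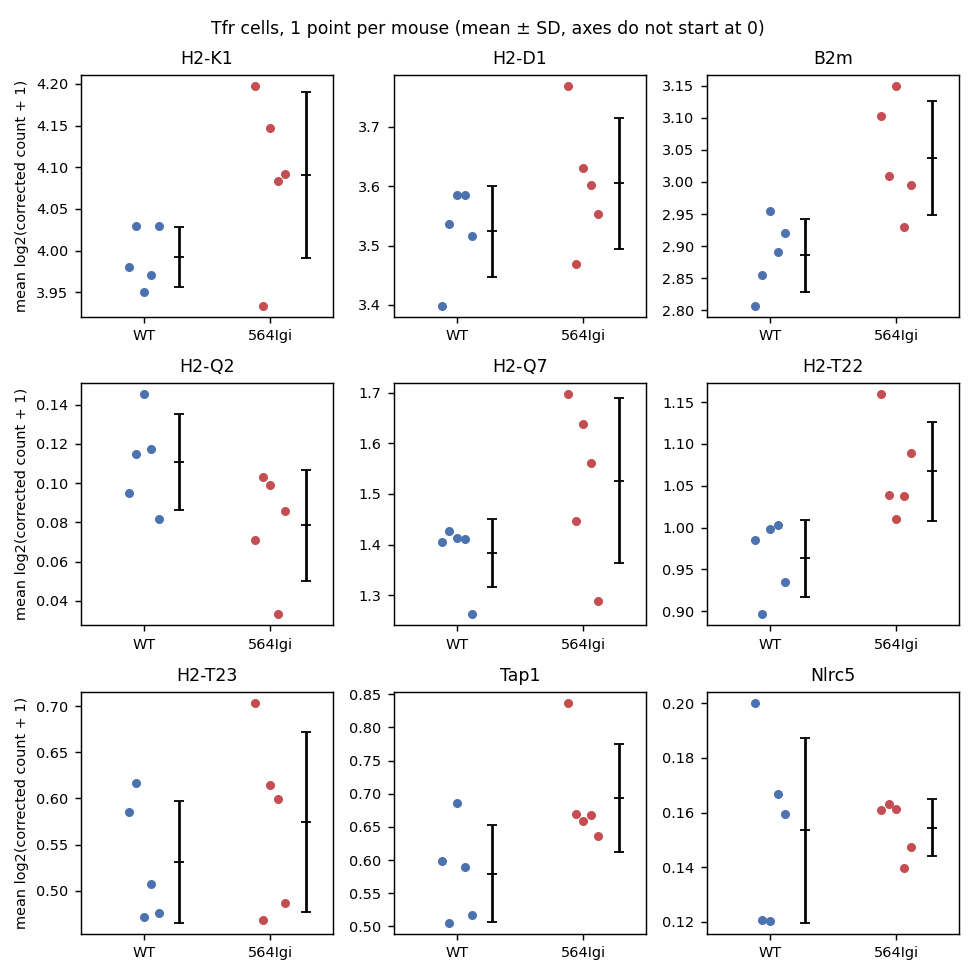
Mean log2(corrected count + 1) of each MHC class I gene in TFR cells (vertical axis, not starting at 0) in WT and 564Igi chimeras (horizontal axis), with 1 point per mouse and the mean ± SD beside the points. H2-T22 is the gene whose groups do not overlap, and mouse 13 stands above the other 564Igi mice for Tap1 at 0.84.

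Whether the difference between conditions was itself larger in TFR than in activated cells was tested on each mouse's TFR minus activated value. The mean of all 9 members was higher in 564Igi mice, beside 47.6% of all genes, and 0 of 9 members and 0% of genes were called, while 3 members and 7.27% of genes passed an unadjusted p below 0.05 and limma without trend called 0. B2m was 0.15 ± 0.11 higher in TFR than in activated cells of WT mice and 0.29 ± 0.06 higher in 564Igi mice (exact p = 0.0476, limma adjusted p = 0.628). For H2-Q7 the values were 0.20 ± 0.09 and 0.33 ± 0.07 (exact p = 0.0238), and for Tap1 0.05 ± 0.05 and 0.15 ± 0.05 (exact p = 0.0238). In the same test of ISG against activated cells, 0 of 9 members and 0% of genes were called, 0 members and 5.17% of genes passed the unadjusted threshold, and the lowest exact p of a member was 0.229, for H2-T23.

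In central memory cells, with 5 WT and 3 of the 564Igi mice, Nlrc5 was 0.203, 0.155, 0.228, 0.125 and 0.179 in WT mice 11, 12, 14, 23 and 36 and 0.333, 0.344 and 0.310 in 564Igi mice 13, 17 and 24. The groups did not overlap, as for 4.77% of all genes here, and the difference of 0.15 (SE 0.04) had an exact p of 0.0179, the smallest that 5 against 3 mice allow, and a limma adjusted p of 0.371. With counts summed per 10000 the difference was up to 0.83, the size at this low level depending on the pseudocount, and the limma adjusted p ranged over the settings from 0.101 to 0.853. The 3 values rest on 21, 83 and 29 cells. Below the minimum of 20 cells, mouse 21 had 0.105 over 19 cells and mouse 34 had 0.321 over 13 cells, so that with them the groups would overlap. Tap1 averaged 0.42 ± 0.05 and 0.60 ± 0.12 in the same cells, also without overlap (exact p = 0.0179, limma adjusted p = 0.554), and the 2 mice below the minimum, at 0.483 and 0.398, lay within the WT range.

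Of the lists around the members, the immunoproteasome genes had a higher mean in 564Igi mice in 5 of 5 cases over all cells and in activated, TFR, Sostdc1+, central memory and effector cells, with medians of 0.14, 0.11, 0.12, 0.11, 0.20 and 0.18. In ISG cells 3 of 5 did, with a median of 0.0069. Among all genes tested, 38.4%, 44.1%, 41.9%, 38.5%, 54.7% and 43.4% had a higher mean in those parts, in the same order, and 50.1% in ISG cells. The medians over all genes lay between -0.0043 and 0.0041. In TFR cells Psme2 differed by 0.20 and Psmb8 by 0.15. None of them was called in any cluster, and at an unadjusted p below 0.05 3 passed over all cells, 1 in activated, 3 in TFR, 0 in Sostdc1+, 3 in central memory, 1 in effector and 0 in ISG cells, beside 3.19%, 3.99%, 3.5%, 4.6%, 7.57%, 5.22% and 4.2% of all genes. Of 7 peptide loading genes 6 had a higher mean in TFR cells, with a median of 0.06, and of 15 regulators 7 did, with a median of -0.0011. Of 4 interferon receptor genes 0 had a higher mean in TFR cells. No gene of these lists was called between conditions.

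Clonal expansion gave a readout outside the RNA clustering. A TCR was recorded for 21405 of the cells, and a clonotype was a pair of CDR3 amino acid sequences within a mouse. Its size was counted over all cells of the mouse with a deposited TCR, in any cluster and whether or not their RNA was kept. Cells of clonotypes with at least 2 cells (expanded) were compared with cells of clonotypes of 1 cell (singleton) in the same mouse and cluster. In TFR cells H2-K1 and H2-D1 rose in expanded clones. The 5808 expanded and 2972 singleton cells came from 10 mice, and 2 of 9 members passed an adjusted p below 0.05, both higher, beside 0.731% of all genes tested and 0.24% in that direction.

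H2-K1 in singleton TFR cells ranged over mice from 3.74 to 4.06 with a median of 3.95, and in expanded cells from 3.96 to 4.26 with a median of 4.06. The ranges overlapped, but within mice expanded cells were higher in 10 of 10, by 0.08 to 0.26. The mean rose by 0.14 (SE 0.02), from 3.94 ± 0.09 to 4.08 ± 0.10, with a limma adjusted p of 0.0270 and an exact sign-flip p of 0.00195, the smallest that 10 mice allow. H2-D1 went from a median of 3.47 (3.32 to 3.60) to 3.59 (3.47 to 3.84), rose by 0.15 (SE 0.02) with a limma adjusted p of 0.0257, and was higher in expanded cells of 10 of 10 mice. Among all genes, 0.28% were higher in every mouse in this contrast.

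B2m differed by 0.10 (SE 0.02, limma adjusted p = 0.0576, higher in 9 of 10 mice) and H2-Q7 by 0.11 (SE 0.03, limma adjusted p = 0.0748, 9 of 10 mice), and neither passed. H2-T22 and Tap1 each differed by 0.04, H2-T23 by 0.01, H2-Q2 by 0.00 and Nlrc5 by -0.02, with adjusted p-values of 0.155 or more. The calls of H2-K1 and H2-D1 depended on the settings. With counts summed per 10000, both adjusted p-values were 0.0853 and 0 genes were called over the whole table, and without cells listing more than 1 α or β V gene both were 0.0535. With expanded clones of at least 3 cells, 4 members passed, H2-K1 (0.0112), H2-D1 (0.0111), B2m (0.0314) and H2-Q7 (0.0405), and by limma without trend 3 did, with B2m at 0.0421.

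Single mice also decided the calls. Both genes lost them without 564Igi mouse 17 (limma adjusted p = 0.0600), 564Igi mouse 13 (0.0725), WT mouse 11 (0.0634), WT mouse 23 (0.0927) or WT mouse 36 (0.0552), and H2-K1 alone lost it without 564Igi mouse 21 (0.0737) or WT mouse 12 (0.0642). Over all settings the adjusted p ranged from 0.00403 to 0.0927 for H2-K1 and from 0.00207 to 0.0927 for H2-D1, while the differences stayed between 0.13 and 0.17 and between 0.14 and 0.18.

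Other measures differed between the same cells. Expanded TFR cells had a median of 3487.75 raw UMIs per cell against 3668 in singleton cells, fewer in 9 of 10 mice, and 3591.51 against 3637.91 corrected counts, fewer in 9 of 10. Foxp3 was found in 53.8% ± 5.08 of expanded and 59.0% ± 4.99 of singleton cells. The summed B cell markers had medians of 5.68 and 5.18 counts per 10000, higher in expanded cells of 7 mice. The part of these in the differences was not tested.

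The expanded minus singleton difference in TFR cells was set against condition for all 9 members, among 27 such tests over 3 clusters. It was 0.05 in WT and 0.15 in 564Igi mice for B2m (exact permutation p = 0.0397), 0.05 and 0.17 for H2-Q7 (exact p = 0.0238) and 0.00 and 0.07 for Tap1 (exact p = 0.0476). For H2-K1 it was 0.11 and 0.17 (exact p = 0.111) and for H2-D1 0.12 and 0.18 (exact p = 0.127), not detectably different between conditions. These p-values are unadjusted.

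**Figure D5:**
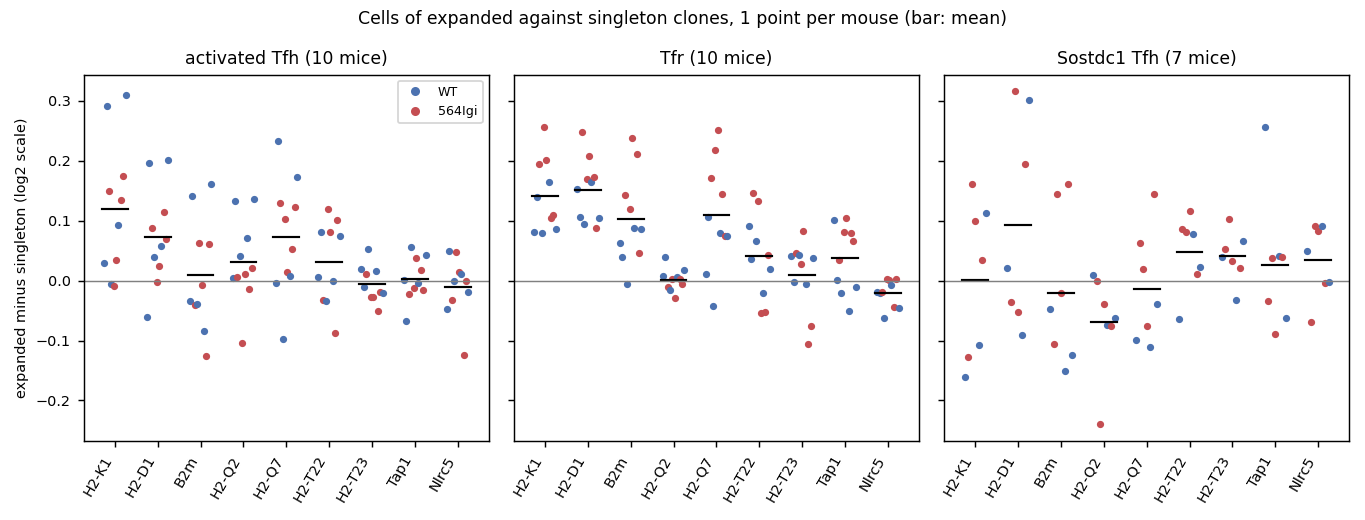
Expanded minus singleton difference on the log2 scale (vertical axis) for each MHC class I gene (horizontal axis) in activated TFH, TFR and Sostdc1+ TFH cells, with 1 point per mouse, WT in blue and 564Igi in red, and bars at the mean. In TFR cells all 10 mice lie above 0 for H2-K1 and for H2-D1, while in Sostdc1+ cells the 7 mice with enough cells lie on both sides of 0.

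In activated TFH cells, with 6637 expanded and 2416 singleton cells of 10 mice, 0 of 9 members were called although 4.8% of all genes were. At an unadjusted p below 0.05, 3 members passed, all higher, beside 21% of genes in either direction and 3.97% of genes higher. H2-K1 differed by 0.12 (SE 0.03, limma adjusted p = 0.0573, higher in 8 of 10 mice), H2-D1 by 0.07 (limma adjusted p = 0.0954) and H2-Q7 by 0.07, and limma without trend also called 0 members. With counts per 10000, H2-K1 (0.0259) and H2-D1 (0.0358) passed, with clones of at least 3 cells H2-K1 did (0.0456), and without WT mouse 14 H2-K1 did (0.0442). Over all settings the adjusted p of H2-K1 ranged from 0.0259 to 0.105.

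Of the listed genes, Icos, a costimulatory receptor of TFH cells, rose by 0.16 (limma adjusted p = 0.0324) and Cst3 by 0.05 (0.0267) in expanded activated cells, and Ifngr1, a chain of the interferon γ receptor, fell by 0.07 (0.0184) and H2-T24 by 0.02 (0.0309). In these cells Foxp3 was found in 5.20% ± 1.79 of expanded and 11.5% ± 4.22 of singleton cells, and raw UMIs had medians of 3587.75 and 3918.5 per cell. In Sostdc1+ TFH cells, with 1488 expanded and 340 singleton cells of 7 mice, 0 of 9 members and 0% of genes were called by limma with or without trend. At an unadjusted p below 0.05, 5.02% of genes and 2 members passed, H2-T23 with a difference of 0.04 and H2-Q2 with -0.07.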

How the data were processed

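Spleen cells of 10 chimeras were measured as single-cell 5′ RNA and TCR libraries. Per the labels and the study's methods, the authors ran Cell Ranger 4.0.0 on GRCm38 (mm10) and Seurat 3.1.4, filtered cells, removed BCR and TCR genes, and normalized WT and 564Igi cells separately with sctransform, regressing out mitochondrial and ribosomal shares, UMIs and a heat shock score. The deposited expression values are natural log of corrected count plus 1. On the linear scale they were whole (largest deviation 3.64e-12, tolerance 1e-06), which are corrected counts and not raw UMIs. The authors' table of cells gave raw UMI counts, the percent of mitochondrial UMIs, the heat shock score and the cluster names, and the deposited TCR table gave CDR3 amino acids and V genes. No doublet removal is named in the sources used here, and no doublet caller was run. There were 0 unused columns of per-sample values. Raw totals were 3424280 to 15241983 UMIs per mouse, and means over few cells (at least 20 per mouse) are less precise.

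Each mouse was 1 replicate, a separate animal. Cells were averaged per mouse as log2(corrected count + 1), and genes found in at least 1% of cells were fitted with limma 3.58.1 (trend, Benjamini-Hochberg adjustment, R 4.3.3), which was tested on simulated data. Because the deposited values were normalized, no count model was used. The call was an adjusted p below 0.01 with a log2 difference above 0.2 between conditions and an adjusted p below 0.05 between clone classes. Single values were compared by exact two-sided permutation over mice, or by exact sign flips within mice (scipy 1.17.1, numpy 2.4.6, pandas 2.3.3, figures with matplotlib 3.10.9). A step between neighbouring clusters was called beyond the spread where its mean within mice exceeded its SD. Markers of B cells, myeloid cells, erythroid cells and follicular T cells were summed per mouse, and shared transcript stretches were read from GENCODE vM21.

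The text names the 9 members in every comparison, any listed gene called in a comparison, the listed genes higher or lower in every mouse in a cluster, and, for H2-K1, Tap1 and Nlrc5, the 5 genes of highest r over mouse by cluster values. The members and lists were chosen with earlier results of these data known. Alternatives were limma without trend, no filter, summed counts per 10000 with a pseudocount of 1 or 0.1, at least 50 cells per mouse, an adjusted p below 0.05, sex or heat shock score as covariate, leaving out mice 34 and 36 or each mouse, clones of at least 3 cells, and leaving out cells with more than 1 α or β V gene. Values of 1 listed gene are not reported here.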

Additional observations from a re-analysis of the deposited data

Results flagged for a closer look

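Among 117 groups of 4 or 5 mice, 6 held a mouse farther from the rest than Dixon's 95% critical value allows, and chance gives about 1 in 20 groups. In TFR cells, Tap1 of 564Igi mouse 13 was 0.838 against 0.636 to 0.670 in the other 4 mice, and H2-Q7 of WT mouse 36 was 1.26 against 1.40 to 1.43. In Sostdc1+ TFH cells, H2-K1 of WT mouse 12 was 3.85 against 3.41 to 3.53, and Tap1 of WT mouse 36 was 0.374 against 0.501 to 0.552. Nlrc5 in activated TFH cells of WT mouse 11 was 0.206 against 0.147 to 0.152. B2m in ISG TFH cells of WT mouse 36 was 3.14 against 3.11 in each of the other 3 mice, a gap that is small on the scale of the other values. All are mean log2(corrected count + 1).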

How the results depend on the processing

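No paired analysis was possible because the conditions share no mouse, and replicate numbers only follow accession order. Between conditions, 0 members were called under every alternative run in the 9 comparisons. Of the members' differences over all comparisons and alternatives, 1722 stayed on their side of the threshold, 16 lost a call and 7 gained one. Of the 1722, 137 changed sign, all of them uncalled differences of at most 0.0791 in size. The difference of H2-Q2 in effector TFH cells turned from -0.04 to 0.00177 with at least 50 cells per mouse, and the cause was not tested. That setting left 4 WT and 1 564Igi mice in central memory and 2 and 1 in ISG cells, where the lone mouse is assumed to vary like the others. In TFR clones, in place of 2 members, 0 were called with counts per 10000, 4 with clones of at least 3 cells, 0 without cells of more than 1 α or β V gene, and 0 to 2 with each mouse left out. In activated TFH clones, in place of 0, these were 2 with counts per 10000, 1 with clones of at least 3 cells, and 0 to 1 with each mouse left out.

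Over the whole table, calls in TFR clones went from 73 to between 0 and 162 over the alternatives and between 0 and 47 with each mouse left out, and in activated TFH clones from 474 to between 234 and 597 and between 88 and 515. Between conditions they went from 1 over all cells to 0 to 7, from 1 in activated to 0 to 4, from 2 in TFR to 0 to 9, from 2 in Sostdc1+ to 0 to 4, from 0 in central memory to 0 to 3 (0 to 9 with a mouse left out), from 1 in effector to 0 to 6 and from 1 in ISG TFH cells to 0 to 2. The likeness without the ISG cluster, chosen after the data were seen, moved 9 of 15 correlations by more than 0.1. Depth limits Nlrc5 and H2-Q2, at mean corrected counts of 0.165 and 0.156 per cell, most.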

Other observations

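Over the 10 mice, 72 pairs of members were correlated, 36 in activated TFH and 36 in TFR cells. After Benjamini-Hochberg adjustment over the 72, H2-Q7 and H2-T23 in activated cells had r = 0.885 (permutation p = 0.00088, adjusted 0.0497) and rho = 0.915 (permutation p = 0.00062, adjusted 0.0446). Their r was 0.967 within the 5 WT and 0.901 within the 5 564Igi mice, 0.954 without mice 34 and 36 and 0.937 without the 2 mice farthest from the median of H2-Q7. H2-Q7 and H2-T23 transcripts each share stretches with other class I genes. H2-T22 and Tap1 in TFR cells had r = 0.894 (permutation p = 0.00138, adjusted 0.0497) but rho = 0.721 (permutation p = 0.0241, adjusted 0.217), and r was 0.646 without the 2 mice farthest from the median of H2-T22, 0.833 within WT and 0.804 within 564Igi mice. No other pair passed an adjusted p of 0.05 by Pearson's r.

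The libraries of mice 34 and 36, which carry numbers apart from the other 8, had the lowest H2-Q7 of all 10 mice over all cells, at 1.09 and 1.15, the next lowest being 1.22 in WT mouse 14. One is a 564Igi and the other a WT mouse. The same mice had the highest mean heat shock scores of the 10, at 0.115 and 0.0809 (next 0.0471), and the part of this in the H2-Q7 values was not tested.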
